A study of Mus musculus with 25 samples.

Results

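The intervals described here are the shortest stretches in a map of DNA methylation of the mouse pancreas: those whose 2 bounding CCCGGG sites lie 250 bp or less apart on chromosomes 1 to 19. The rule uses position and length alone, with no count entering it. It takes 2403 of the 22749 intervals in the deposited table, or 10.6%, and 22300 of the intervals in the table are autosomal. The lengths ran from 61 to 250 bp. There were 101 intervals of 61 to 100 bp, 515 of 101 to 150 bp, 982 of 151 to 200 bp and 805 of 201 to 250 bp.

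The map was made by methylation-specific amplification with sequencing (MSA-seq) from genomic DNA of FVB mice, an albino inbred strain, with 5 mice in each of 5 groups. Islets, the clusters of endocrine cells that make insulin and other hormones, came from 4 of the groups: control mice at postnatal day 21 (P21), small-litter mice at P21, control mice at day 180 (P180) and small-litter mice at P180. Control mice had been suckled in litters of 9 pups and small-litter mice in litters of 4 pups until P21, a rearing model of early overnutrition. The fifth group was whole pancreas of control mice at P21, which the submitters count as exocrine tissue because it consists almost wholly of the part that secretes digestive enzymes. Islets had been picked by hand in 3 rounds, and the litter that each mouse came from is not given, so mice of 1 group may be siblings. None of the groups carries a transgene or deletion according to the labels. Tissue identity could not be checked against marker genes, because the values are methylation counts that were not assigned to genes here.

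SmaI is a restriction enzyme that cuts CCCGGG only where the central CpG is unmethylated and leaves blunt ends. XmaI recognises the same letters, also cuts when that cytosine is methylated and leaves overhanging ends, to which adaptors are joined. A fragment is therefore amplified when the sites at both of its ends are methylated, and a higher count stands for more of the DNA copies carrying methylation at both sites. In mammals such methylation is common over repeats and gene bodies and rare in the CpG islands of active promoters. A short interval reports on 2 sites that are close neighbours. The measure is relative: counts give no absolute level, and in DNA of mixed cells, a change of methylation and a change in the share of cells that carry it cannot be told apart. The amplified products had been sheared to 200 to 500 bp before sequencing, so the intervals here were no longer than the lower part of that range. No genome sequence of the mm9 build was used, so positions are those of the deposited table, without the letters between the sites.

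Depth was adequate to test nearly all of the short intervals. Total counts per library ran from 2912624 to 10591677, and the median short interval held 1021 counts over all 25 libraries. At least 1 count in every library was found for 2181 of the 2403 intervals, and 222 were at 0 in 1 or more libraries. Most of these zeros came from 3 libraries: 112 short intervals were at 0 in replicate 1 of small-litter P21 islets, 92 in replicate 3 of control P21 islets and 73 in replicate 2 of small-litter P180 islets. After the filter on low counts, 2306 were tested between exocrine tissue and control P21 islets, and the 97 left out held 228 to 833 counts in total. Between islet groups 2402 were tested. Replicates differed by more than counting noise in each of the 5 groups, so no library was a copy of another. Over all intervals the chi-square was 3.59 to 32.0 per degree of freedom. Over the short intervals, Pearson's r of log2 normalised counts between replicates of a group ran from 0.35 to 0.92. It was lowest for replicate 1 of small-litter P21 islets, at 0.35 to 0.44 with the others of its group. Those others had 0.60 to 0.90 among themselves. The labels name no processing batch.

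At longer intervals an islet library, control P180 replicate 3, stood apart from its group in the direction of exocrine tissue. At the 2087 longer autosomal intervals called lower in exocrine tissue than in control P21 islets it was the lowest of its 5 libraries at 1687, or 80.8%. At the 1791 longer intervals called higher it was the highest of the 5 at 1077, or 60.1%. In the other 19 islet libraries neither share exceeded 46.8%. Among the short intervals named for the tissue comparison it was the lowest of its group at 9 of the 10 that were lower in exocrine tissue, and the highest at 6 of the 10 that were higher. Being lowest at the former was not particular to it: replicate 5 was lowest at 8 of them in control P21 and at 7 in small-litter P21 islets. Over all 1014 short intervals called lower, control P180 replicate 3 was the lowest of its group at 64.5%. That share was 77.8% for control P21 replicate 5, 72.8% for small-litter P21 replicate 5 and 68.6% for small-litter P180 replicate 3. Control P180 replicate 3 does not enter the tests between tissues, and the results with age and litter size are given with and without it. What sets it apart was not tested.

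The short intervals took up a small share of each library, and that share differed more between the P21 islet libraries than between the exocrine ones. They held 3.77% ± 1.53 of the autosomal counts in control P21 islets (SD, n = 5), with 4.61%, 6.02%, 3.04%, 2.99% and 2.21% in replicates 1 to 5. In small-litter P21 islets the share was 3.67% ± 1.09, from 2.18% to 4.80%. At P180 it was 3.32% ± 0.611 in control islets, from 2.65% to 4.21%, and 2.89% ± 0.675 in small-litter islets, from 2.09% to 3.92%. Exocrine tissue had 2.10% ± 0.250, from 1.85% to 2.47%. Control P21 replicates 1 and 2 lay above all exocrine libraries by a wide margin, whereas replicate 5, at 2.21%, lay inside the exocrine range. So did 1 small-litter library at each age, replicate 5 at P21 and replicate 3 at P180. The mean difference between exocrine tissue and control P21 islets was -1.68 percentage points, and -1.12 without control P21 replicate 2.

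**Figure D1:**
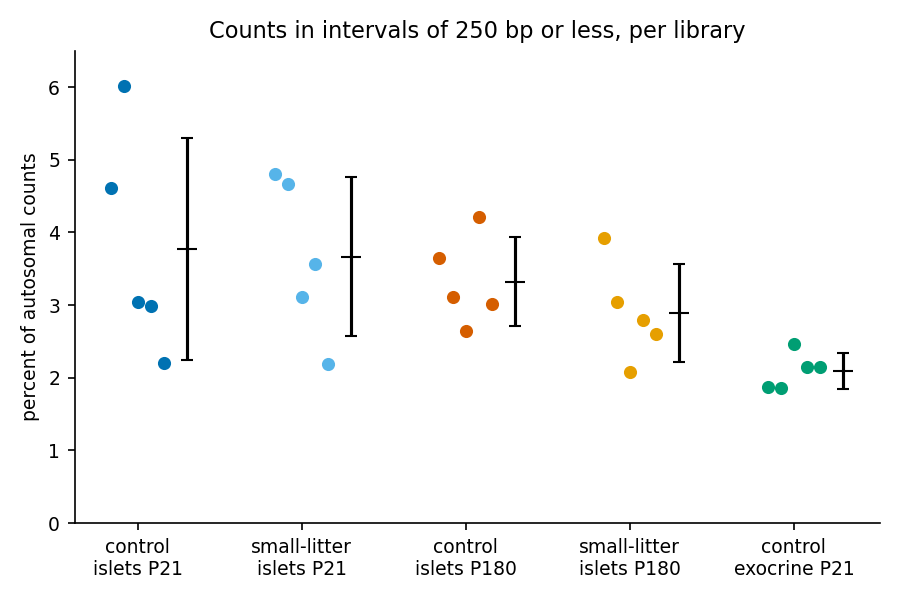
Percent of each library's autosomal counts that fell in intervals of 250 bp or less (vertical axis), for the 5 groups (horizontal axis). Points are libraries, and the black mark and bar give the mean and SD of 5 libraries. Control P21 islets spread from 2.21% to 6.02%, and the exocrine libraries from 1.85% to 2.47%.

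Single short intervals varied more between replicates than longer ones, most of all in young islets. The median coefficient of variation (CV, the SD as a percent of the mean) of normalised counts over 5 replicates was 51.4% in control P21 and 49.8% in small-litter P21 islets, against 26.7% and 27.9% over all autosomal intervals. At P180 it was 34.3% in control and 36.9% in small-litter islets, against 23.9% and 23.0% over all, and in exocrine tissue it was 32.0% against 26.9%. Within the short intervals the spread was widest at 101 to 150 bp, where the median CV in control P21 islets was 66.8%. It was 35.3% at 61 to 100 bp and 43.5% at 201 to 250 bp. Levels were low: normalised counts (CPM, counts relative to library size, with TMM scaling over all 25 libraries) had a median of 10.8 in control P21, 10.1 in small-litter P21, 9.09 in control P180, 7.82 in small-litter P180 islets and 5.03 in exocrine tissue. Over all autosomal intervals the corresponding medians lay between 16.6 and 18.0. Per kilobase of interval the short intervals had a median of 51.7 CPM per kb, below the 96.0 and 80.9 of the classes up to 500 and up to 1000 bp and above the 6.99 of those over 1000 bp.

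Exocrine tissue had lower counts than control P21 islets at most short intervals, and the direction was nearly one-sided. The edgeR quasi-likelihood test with Benjamini-Hochberg adjustment over the whole table called 1014 of the 2306 tested intervals lower in exocrine tissue and 14 higher at 0.05. That is 44.0% lower, where the background over all 22514 intervals tested was 14%, and 0.607% higher, where the background was 8.07%. Among the intervals that are not short, 10.6% were lower and 8.93% higher. The median log2 fold change of exocrine tissue over control P21 islets was -1.08 for the short intervals and -0.02 over all intervals tested. It was below 0 for 88.9% of the short intervals, 1226 were over 2-fold lower, 279 over 4-fold lower and 12 over 2-fold higher. All 5 exocrine libraries lay below all 5 control P21 libraries at 18.4% of the short intervals (background 8.35%), and above them at 0.781% (background 7.09%). These included 411 of the 1014 called lower and 10 of the 14 called higher.

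The number called depended on single control libraries. Without control P21 replicate 2, which had the highest share of counts in short intervals, 618 were called, and without replicate 1, 676 were. Leaving out replicate 5, which had the lowest share, raised the number to 1329. Scaling factors computed over the short intervals alone centre these intervals by construction and moved the median log2 fold change of all intervals up by 0.87. Then 236 of the short intervals were called higher and 202 lower, with a median of -0.01. Relative to all intervals their median was -0.86, against -1.05 in the main test.

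The difference between the tissues varied with the distance between the sites, and it was small at the shortest distances. In 10 bp bins the median log2 fold change was 0.29 at 61 to 70 bp (25 intervals), -0.04 at 71 to 80 bp (21) and 0.12 at 81 to 90 bp (18). It was -0.97 at 91 to 100 bp (33 intervals), lowest at 111 to 120 bp with -1.61 (80) and at 151 to 160 bp with -1.55 (371), and -0.68 in the last bin inside the limit (122). By class, 11.3% of the tested intervals were called lower at 61 to 100 bp, 51.1% at 101 to 150 bp, 52.5% at 151 to 200 bp and 33.6% at 201 to 250 bp. The decline went on beyond the limit of 250 bp: 23.6% were lower in the class up to 500 bp, 12.5% in that up to 1000 bp and 6.97% in that up to 3000 bp, with medians of -0.26, 0.13 and 0.07. The limit itself marked no step. The 126 intervals in the last 10 bp inside it and the 139 in the first 10 bp beyond it had median levels of 14.6 and 14.2 CPM and median log2 fold changes of -0.68 and -0.78.

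**Figure D2:**
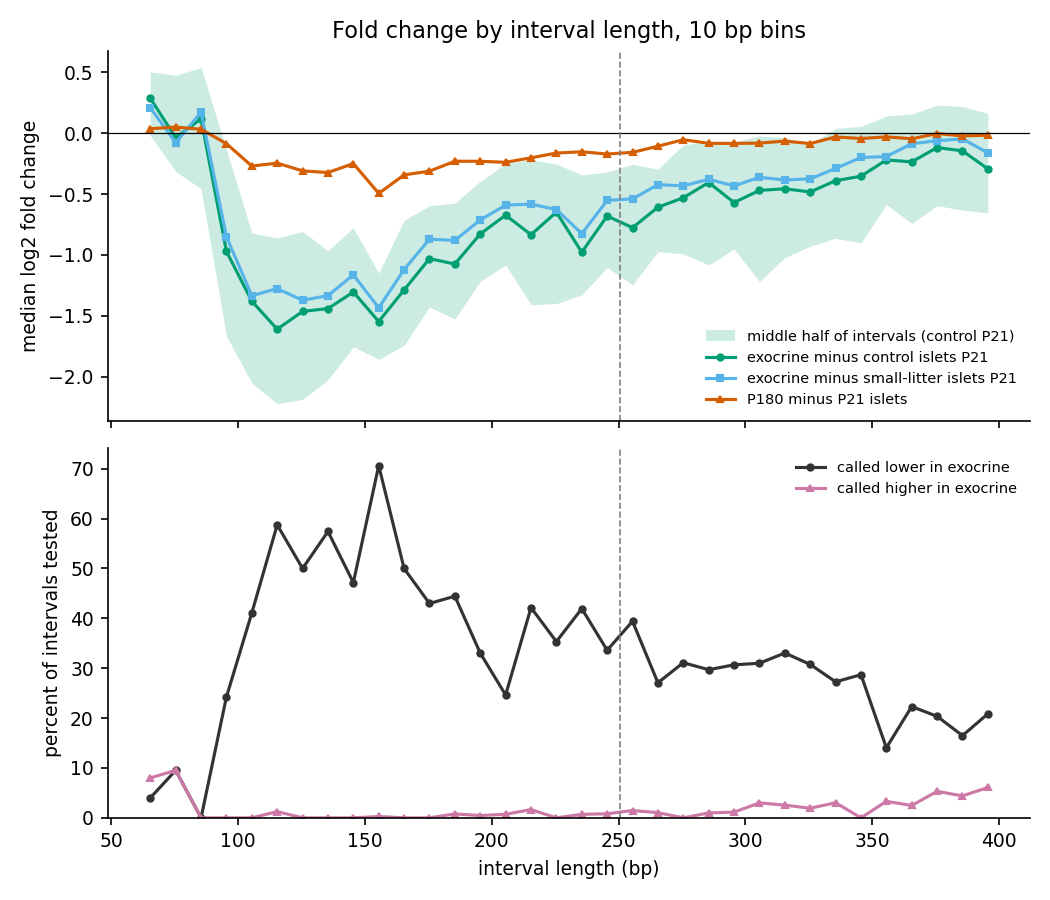
Upper panel: median log2 fold change (vertical axis) by interval length in 10 bp bins from 61 to 400 bp (horizontal axis), for exocrine tissue minus control P21 islets with the middle 50% of intervals shaded, exocrine tissue minus small-litter P21 islets, and P180 minus P21 islets. Lower panel: percent of tested intervals called lower or higher in exocrine tissue than in control P21 islets. The dashed line is the limit of 250 bp. The medians lie near 0 below 91 bp, reach -1.61 at 111 to 120 bp and rise again with length.

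When each library's trend on length was removed, the short intervals no longer leaned one way. With a lowess curve on log2 length, the edgeR test called 263 higher and 288 lower in exocrine tissue, or 11.4% and 12.5%, where the background over all intervals was 11.6% and 11.9%. A running median over the 101 intervals nearest in length gave 216 higher and 261 lower, or 9.37% and 11.3%, against backgrounds of 10.5% and 12%, and a median of -0.06. Of the 1014 intervals called lower without this step, 258 were still lower with the running median, none was called higher, and 13 of the 14 called higher were still higher. The running median removes whatever most intervals of a given length share, including a difference between the tissues that they would share. Whether the length trend comes from the libraries or from the tissues was not tested.

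The intervals furthest below islets had next to no counts in exocrine tissue. At chr2:28764624-28764747, 123 bp long, normalised counts in control P21 islets were 22.2, 39.4, 19.0, 14.6 and 6.38 CPM, and in exocrine tissue 0.339, 0, 0.213, 0 and 0.312 CPM, from 5 counts in all 5 exocrine libraries together. The groups did not overlap, and small-litter P21 islets, at 14.3 ± 11.1 CPM, control P180 islets, at 14.5 ± 8.89 CPM, and small-litter P180 islets, at 13.2 ± 7.43 CPM, each held more than exocrine tissue. The log2 fold change of exocrine tissue over control P21 islets was -6.63 ± 0.63 (SE), with an edgeR adjusted p of 6.26e-06. It stayed at -5.38 with the length trend removed by running median (adjusted p 1.91e-06), and the intervals on both of its sides, of 837 and 326 bp, had log2 fold changes of -3.18 and -6.14.

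At chr9:90164504-90164671, 167 bp long, control P21 islets had 34.8, 44.5, 11.7, 9.85 and 9.19 CPM and exocrine tissue 0.169, 0.616, 1.07, 0 and 0 CPM. The log2 fold change was -5.93 ± 0.77 (edgeR adjusted p 0.000186), and the 1119 bp interval that begins where it ends had -3.41. Control P180 replicate 3 held only 0.525 CPM there, close to the exocrine level, while the other 4 control P180 libraries held 9.57 to 23.0 CPM. At chr9:63602669-63602895, 226 bp long, counts were higher and the spread narrower: 39.2, 55.5, 39.0, 25.1 and 23.5 CPM in control P21 islets against 1.35, 3.08, 3.20, 2.67 and 3.43 CPM in exocrine tissue. Its log2 fold change was -3.77 ± 0.33 (edgeR adjusted p 3.66e-06). Islets at P180 lay between, with 20.5 ± 9.46 CPM in control and 19.4 ± 3.32 CPM in small-litter mice. Control P180 replicate 3 was again the lowest of the 5, at 5.25 CPM.

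The other 7 of the 10 intervals with the largest decrease ranged from -5.47 at chr11:97170717-97170915 to -3.78 at chr5:134697935-134698090. All 10 were called lower with either length trend removed. They rest on few exocrine counts, from 4 to 72 over the 5 libraries. One of them, chr11:75323363-75323534, had a log2 fold change of -3.96 ± 0.64 while the 2203 bp interval that ends where it begins had 1.10, which was not called (edgeR adjusted p 0.0974). Another, chr9:5934942-5935143, adjoined no listed interval and was among the steadiest of the 10 across islets: 11.1 ± 4.46, 11.0 ± 4.84, 10.3 ± 3.72 and 7.76 ± 1.67 CPM in control P21, small-litter P21, control P180 and small-litter P180 islets, against 0.757 ± 0.471 CPM in exocrine tissue.

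The few short intervals that were higher in exocrine tissue differed by less. At chr9:107407619-107407681, only 62 bp long, control P21 islets had 10.9, 4.54, 11.0, 7.39 and 7.40 CPM and exocrine tissue 25.9, 21.8, 26.0, 21.4 and 35.1 CPM. Every exocrine library was above every islet library of the 4 islet groups, whose highest value was 18.4 CPM. The log2 fold change was 1.62 ± 0.27 (edgeR adjusted p 0.000748), and the adjoining 801 bp interval had 1.19. At chr2:174125550-174125756, 206 bp long, control P21 islets had 33.8, 40.6, 19.6, 17.7 and 22.7 CPM and exocrine tissue 49.4, 56.3, 54.4, 49.6 and 81.3 CPM, a log2 fold change of 1.06 ± 0.24 (edgeR adjusted p 0.00626). Its 398 bp neighbour had 1.03. The remaining 8 that passed the rule for naming ran from 0.57 at chr1:184822125-184822374 to 1.62 at chr12:29966466-29966698. Of the 10, 8 adjoined a longer interval that also lay above 0. Among the 10, 4 calls were lost when certain single libraries were left out: at chr1:184822125-184822374 (7 of 10 libraries), chr17:45698114-45698194 (6), chr4:148919863-148919977 (4) and chr12:29966466-29966698 (2).

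**Figure D3:**
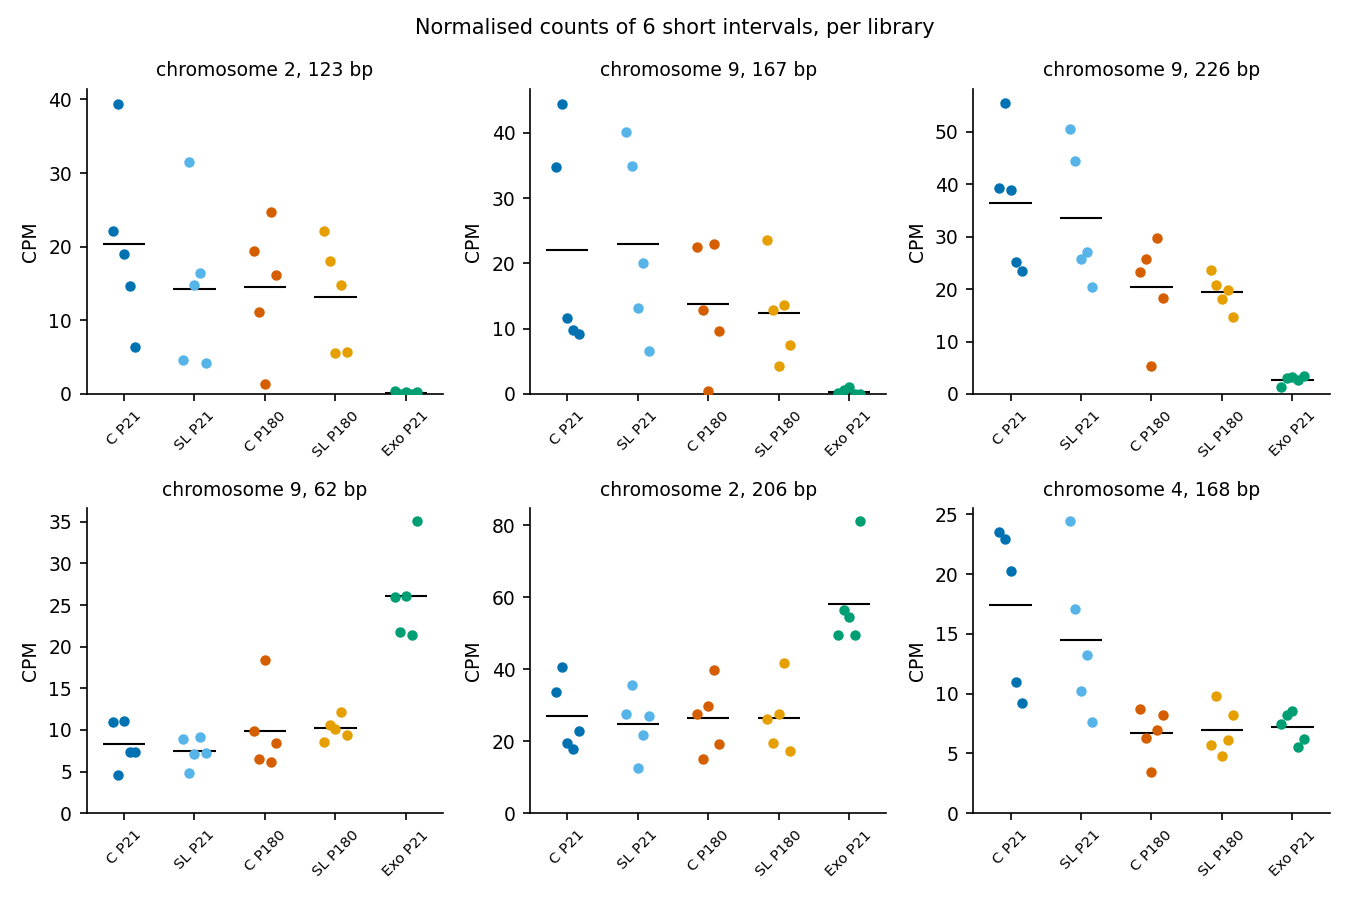
Normalised counts (CPM, vertical axes from 0) in every library of the 5 groups (horizontal axes) at 6 short intervals, titled by chromosome and length. Points are libraries and lines are means of 5. The 123, 167 and 226 bp intervals were lower in exocrine tissue than in control P21 islets, the 62 and 206 bp intervals were higher, and the 168 bp interval on chromosome 4 was lower at P180 than at P21.

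Many short intervals had exactly the same length, which longer intervals did not show to this degree. The 2403 intervals took 188 different lengths with a median of 10 intervals per length, yet 138 were 156 bp, 125 were 154 bp and 52 were 155 bp long. A second group lay at 198 to 204 bp, with 85 intervals of 201 bp and 59 of 199 bp. In all, 7 lengths held 40 or more intervals each and 550 intervals together, or 22.9%. Among longer autosomal intervals no length held more than 24. The 315 intervals of 154 to 156 bp were found on all 19 autosomes. They made up 27.2% of the short intervals on chromosome 6 and 23.5% on chromosome 13 but 5.03% on chromosome 11 and 4.96% on chromosome 17. They had listed neighbours less often: 66 of the 315 adjoined another listed interval, against 91 of the 231 intervals up to 10 bp shorter or longer. Whether they are copies of one repeated element was not tested, since the sequence between the sites was not read, and reads of such copies could be shared between them. These lengths were singled out after their values had been seen.

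A larger share of the intervals of 154 to 156 bp was called between the tissues than of those around them in length. Of 293 tested, 219 were called lower in exocrine tissue, or 74.7%, against 52.1% of those up to 10 bp shorter or longer and 43.97% of all short intervals. Their median log2 fold change was -1.55, with 50% of them between -1.86 and -1.19. For the intervals of nearby length it was -1.37, with 50% between -1.74 and -0.83. The share called also depends on the spread between replicates. In control P21 islets the median CV was 50.6% at 154 to 156 bp and 60.7% at nearby lengths. In exocrine tissue it was 35.7% and 35.0%. At exactly 154 bp, 97 of 114 were called lower and all 114 lay below 0. Median levels at 154 to 156 bp were 8.13 CPM in control P21, 7.66 in small-litter P21, 5.92 in control P180, 5.11 in small-litter P180 islets and 3.10 in exocrine tissue. They took 8.08% ± 0.71 of all counts in short intervals in control P21 islets, from 7.16% to 8.66%, and 5.46% ± 0.79 in exocrine tissue, from 4.76% to 6.75%. The 2 ranges did not overlap. Small-litter P21 islets, at 8.14% ± 1.17 (7.23% to 10.2%), also lay above the exocrine range. Control P180 islets, at 7.10% ± 0.33 (6.71% to 7.41%), and small-litter P180 islets, at 6.84% ± 0.73 (5.82% to 7.86%), overlapped it. The group at 198 to 204 bp behaved differently, with 87 of 315 called lower (27.6%) and a median of -0.73, beside -0.79 and 34.6% for the intervals up to 10 bp shorter or longer. Once the running median over lengths was removed, 11 intervals of 154 to 156 bp were lower and 20 higher. At these lengths the running median is itself made up of them.

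The interval of 156 bp with the highest level, chr1:85336688-85336844, shows the pattern in single libraries. It had 87.3, 105, 58.3, 44.2 and 41.1 CPM in control P21 islets and 19.8, 21.4, 35.2, 24.5 and 23.7 CPM in exocrine tissue. Small-litter P21 islets had 62.1 ± 22.2 CPM, control P180 islets 46.5 ± 8.18 and small-litter P180 islets 38.9 ± 11.5. Every control P21 library was above every exocrine library. The log2 fold change was -1.48 ± 0.27, called by edgeR with an adjusted p of 0.00145. With the running median removed it was -0.15 and not called (edgeR adjusted p 0.451).

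**Figure D4:**
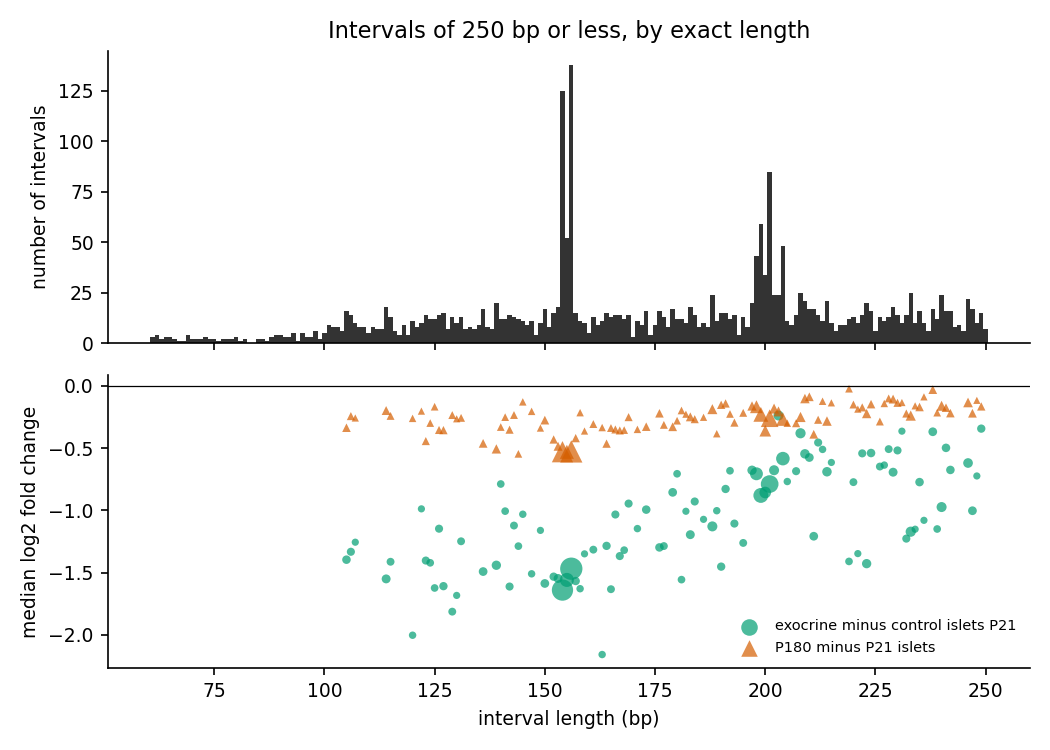
Upper panel: number of intervals (vertical axis) at each exact length up to 250 bp (horizontal axis). Lower panel: median log2 fold change at each length held by 10 or more intervals, for exocrine tissue minus control P21 islets (circles) and P180 minus P21 islets (triangles), with larger symbols for more intervals. The peaks at 154 and 156 bp hold 125 and 138 intervals and have medians of -1.64 and -1.47 between the tissues and -0.53 with age.

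Less than 50% of the short intervals shared a site with another listed interval, and the isolated ones differed more between the tissues. A neighbour that begins or ends at the same site was listed for 1089, or 45.3%, and 1314 had none. Isolated thus means without a listed neighbour, and why none is listed was not tested. Only 205 adjoined another short interval, in 97 runs of 2, 1 run of 3 and 2 runs of 4. Of the isolated intervals tested, 52.0% were called lower in exocrine tissue with a median log2 fold change of -1.24, against 34.5% and -0.83 for those with a neighbour. At 61 to 100 bp, 83.2% had a neighbour, and the median was 0.09 over the 82 of these that were tested and -1.07 over the 15 tested without one. The gap was small at 201 to 250 bp, where 35.0% were called lower without a neighbour and 32.1% with one. The medians there were -0.79 and -0.68. Isolated intervals also had lower levels, with a median of 7.42 CPM against 11.2 CPM.

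A short interval and the longer one beside it share one of their 2 sites, and their differences between tissues were related but unequal. Over 1057 such pairs, the median log2 fold change was -0.78 for the short interval and -0.04 for the longer one, and the short interval had the lower value in 825, or 78.1%. Pearson's r across pairs was 0.52, and 0.53 with length trends removed by lowess, a description over pairs that share libraries and a site. Where the neighbour was over 1000 bp long, the medians were -0.96 and -0.05 and the short interval was lower in 504 of 581 pairs. With a neighbour of over 250 and up to 500 bp they were -0.67 and -0.30. The 98 pairs of 2 adjoining short intervals had r = 0.81.

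**Figure D5:**
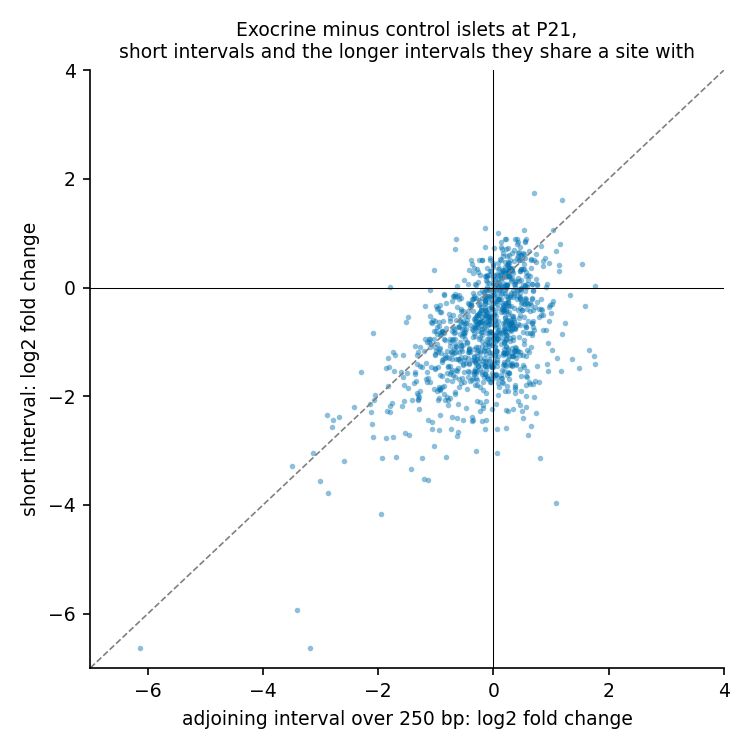
Log2 fold change of exocrine tissue over control P21 islets in 1057 pairs of a short interval (vertical axis) and an adjoining interval over 250 bp (horizontal axis). A short interval with a longer neighbour on both sides appears once for each. Each point is a pair that shares a site, and the dashed line marks equal values. In 825 pairs the short interval lies below the line.

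In 363 of these pairs the short interval was called lower, and the neighbour was also called lower in 101 and called higher in 15. Among all intervals that are not short, 10.6% were called lower and 8.93% higher. Lower neighbours were thus more frequent here than that background, and higher neighbours less frequent. That background is not matched: these neighbours share a site with an interval picked as lower, and the share called varies with length. Neighbours of short intervals that were not called lower were not compared. At the shared site of each of these 15 pairs, the 2 intervals were called in opposite directions. The largest gap was at chr1:36624948-36625167, 219 bp, whose values in control P21 islets were 10.6, 16.5, 8.59, 4.43 and 3.32 CPM and in exocrine tissue 1.02, 1.23, 1.92, 0.445 and 0.468 CPM. The 2467 bp interval that starts at its end had 14.0 ± 4.20 CPM in control P21 islets and 25.3 ± 7.20 CPM in exocrine tissue. Their log2 fold changes were -3.13 and 0.80 (edgeR adjusted p 0.00079 and 0.0369). At chr17:32800112-32800219, 107 bp, the mean was 18.5 ± 13.9 CPM in control P21 islets and 3.27 ± 1.40 CPM in exocrine tissue, and in the 783 bp interval beside it 108 ± 21.1 and 176 ± 34.9 CPM. With length trends removed by running median, the short interval remained lower in 2 of the 15 pairs, the neighbour higher in 12, and both in 1, the pair on chromosome 17. These pairs were picked for their opposite calls, so the calls are a description.

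Set against small-litter P21 islets, the exocrine libraries gave the same lean. These are the same 5 exocrine libraries, so the 2 comparisons share data. The edgeR test called 769 of 2351 lower and 12 higher, or 32.7% and 0.51%, where the background was 10.3% and 5.68%. The median log2 fold change was -0.93. Without small-litter P21 replicate 2, 449 were called, and without replicate 5 of that group 1080 were. With length trends removed by running median, 157 were higher and 151 lower, against backgrounds of 6.99% and 8.7%, and 150 of the 769 were still lower. At chr2:28764624-28764747 the log2 fold change was -6.14 and at chr9:107407619-107407681 it was 1.78, beside -6.63 and 1.62 against control islets.

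Between P21 and P180 the counts of short intervals in islets moved down on the whole, but only 1 interval passed the test. The median log2 fold change from P21 to P180, averaged over both litter groups, was -0.26 for the short intervals and -0.00 over all 22654 tested. It was -0.20 in control and -0.34 in small-litter mice. With the length trend removed, which centres the short intervals by design, their median was 0.03 by lowess and 0.01 by running median. Limma voom with quality weights gave a median of -0.085. Without control P180 replicate 3 the edgeR median was -0.23. The edgeR test called 1 of 2402 lower, or 0.0416% (background 0.0177%), and none higher (background 0.194%). At an unadjusted p under 0.05 there were 336, or 14.0%, against 9.57% of all intervals. DESeq2 called 7 and limma voom 2 in either direction.

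The 1 interval was chr4:22630628-22630796, 168 bp long. It had 23.5, 23.0, 20.2, 11.0 and 9.19 CPM in control islets at P21, and 8.72, 6.29, 3.41, 6.97 and 8.21 CPM at P180. In small-litter islets the values were 24.5, 17.1, 10.2, 13.2 and 7.59 CPM at P21 and 5.74, 9.82, 4.75, 6.11 and 8.21 CPM at P180. Control P21 libraries all lay above the control P180 libraries, while the small-litter ranges overlapped. The log2 fold change was -1.20 ± 0.24, with an edgeR adjusted p of 0.0353. That call was lost, with an adjusted p of up to 0.0670, when any of 13 of the 20 libraries was left out. Control P180 replicate 3 was among these 13: without it the log2 fold change was -1.11 with an adjusted p of 0.0523, and the 1 interval then called was another one. The call was also lost, at 0.106, without the 3 libraries with the most intervals at 0. Exocrine tissue at P21 had 7.20 ± 1.28 CPM there, near the islet level at P180.

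Intervals of 154 to 156 bp had low values with age too. Between 154 and 156 bp the median log2 fold change from P21 to P180 was -0.53, 94.0% of 315 intervals lay below 0, and 131, or 41.6%, had an unadjusted p under 0.05. For intervals up to 10 bp shorter or longer these values were -0.34, 83.9% and 10.9%, and at 198 to 204 bp they were -0.24, 89.3% and 17.7%. The spread between replicates, on which p also depends, was narrower at 154 to 156 bp than at nearby lengths. In control P180 islets the median CV was 29.4% against 40.9%. None of the intervals of 154 to 156 bp passed the adjusted threshold. Control P21 islets enter both this comparison and that between tissues, so the low values at these lengths in both are not separate observations.

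Within a litter group, and between litter groups, no short interval passed the test. The edgeR count was 0, with a background of 0, for age in control mice, for age in small-litter mice, for litter size at P21, for litter size at P180, and for the interaction of age and litter size. DESeq2 and limma voom also called 0 in each. At an unadjusted p under 0.05 there were, in this order, 63, 199, 7, 29 and 10 short intervals. These are 2.62%, 8.28%, 0.291%, 1.21% and 0.416% of the short intervals, beside 4.64%, 5.18%, 0.927%, 0.887% and 0.998% of all intervals tested. Without control P180 replicate 3 the counts were 85, 216, 12, 25 and 9, and none passed the adjusted threshold. The median log2 fold change of small-litter over control islets was -0.07 at P21 and -0.23 at P180. The smallest p at P21 was at chr4:140203175-140203391, 216 bp, with 12.5 ± 2.03 CPM in control and 6.60 ± 2.85 CPM in small-litter islets, and 7.82 ± 2.04 and 8.90 ± 1.49 CPM at P180. At P180 it was at chr12:106152679-106152928, 249 bp, with 3.18 ± 0.896 CPM in control and 1.37 ± 0.521 CPM in small-litter islets. The others with the next smallest p were chr4:118782431-118782654 at P21 and chr5:125910386-125910586 at P180, with log2 fold changes of -1.11 and -1.18. None of these is a call.

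A pair of intervals on chromosome 17 stood far above all the other short ones. Chr17:39985224-39985469, 245 bp, held 188540 counts over the 25 libraries, and chr17:39985469-39985652, 183 bp, which begins where it ends, held 96843. Whether either stands for a single copy in the genome was not tested, and how reads that map to several places were counted is not given in the sources used here. In control P21 islets they had 1406 ± 391 and 867 ± 258 CPM. In exocrine tissue the first ranged from 323 CPM in replicate 4 to 2617 CPM in replicate 3, and the second from 275 to 1346 CPM in the same libraries. Neither passed the test between exocrine tissue and control P21 islets (log2 fold changes of 0.09 ± 0.43 and 0.00 ± 0.37), and the sign of each turned under some alternatives. The next highest, chr13:13995513-13995718, had 84.6 ± 12.8 CPM in control P21 islets, and chr5:113522977-113523057, 80 bp, and chr5:83880940-83881152, 212 bp, had 80.4 ± 12.8 and 70.1 ± 24.2 CPM.

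The longest run of adjoining short intervals with the higher level covered chr6:60140218-60140974 in 4 intervals of 200, 155, 246 and 155 bp. Their means in control P21 islets were 22.2 ± 8.24, 17.2 ± 6.97, 22.7 ± 5.45 and 11.7 ± 5.65 CPM, and in exocrine tissue 9.30 ± 3.31, 8.20 ± 2.62, 15.2 ± 3.72 and 8.03 ± 1.02 CPM. Log2 fold changes were -1.31, -1.12, -0.63 and -0.60 along the run. The edgeR test called the first and second lower (adjusted p 0.00825 and 0.0232), and the other two missed the threshold (0.0793 and 0.186). A call was also made at the first interval with the running median removed (adjusted p 0.0398), where the fourth was called higher (adjusted p 0.0185). With the lowess curve removed the first was not called, at -0.48 (adjusted p 0.150), nor was it when scaled over the short intervals, at -0.37 (adjusted p 0.390).

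The steadiest short intervals across all 25 libraries were chr4:153528080-153528299, with a CV of 13.6%, chr3:137706493-137706688 with 14.0% and chr19:6927683-6927898 with 15.3%, among those with a mean of at least 50 counts. The first had 39.4 ± 6.55, 35.4 ± 5.21, 37.8 ± 3.97 and 35.5 ± 4.83 CPM in control P21, small-litter P21, control P180 and small-litter P180 islets and 35.0 ± 4.75 CPM in exocrine tissue. Each of them differed between tissues by less than the spread of replicates. The shortest interval, chr12:19253198-19253259, 61 bp, had 2.58 ± 1.74 CPM in control P21 islets and 5.46 ± 1.96 CPM in exocrine tissue, and the difference missed the threshold (edgeR adjusted p 0.141). The interval just beyond the limit with the highest level, chr5:112785495-112785751, 256 bp, had 72.6 ± 11.3 and 63.3 ± 10.6 CPM. The one just inside it was chr17:39985224-39985469.

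The decrease in exocrine tissue was spread over the genome and over levels. By chromosome, from 39.3% of the short intervals on chromosome 15 to 51.4% on chromosome 9 were called lower than in control P21 islets, with medians from -0.96 to -1.23. With the intervals ordered by level and cut into 4 groups of like size, 33.6% were called lower in the lowest group, 45.5% and 51.7% in the middle ones and 43.6% in the highest, above 15.0 CPM.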

How the data were processed

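Counts were used as the authors deposited them: whole read numbers for each interval bounded by CCCGGG sites, unscaled, with totals that differ between libraries. Per the labels' protocols, SmaI digestion was followed by XmaI digestion, adaptor ligation, amplification, shearing and paired-end sequencing. Tools named in the submitters' processing notes are FastQC 0.10.1, cutadapt and Bowtie 0.12.9, with build mm9. How reads were assigned to intervals and how duplicates and multiply mapped reads were treated is not given in the sources used here, nor is whether positions start at 0 or 1. Reads are not independent molecules. Precision rests on the spread between replicates as well as on totals of 2912624 to 10591677 counts.

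Groups came from the sample labels. Members, lists and the rules for naming intervals were chosen with earlier results of these data known. The tests were run with edgeR 4.0.16 under R 4.3.3 (filterByExpr, scaling by trimmed mean of M-values (TMM), robust quasi-likelihood test, Benjamini-Hochberg adjustment over all intervals tested, threshold 0.05). Tissues were compared on 10 libraries, and age, litter size and their interaction as contrasts of 4 group means over 20 islet libraries. Standard errors were derived from the test statistic. P-values measure the spread between these mice. CPM used TMM factors over 25 libraries, and log2 CPM a prior count of 2. Code was tested on simulated counts.

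Intervals named in the text were, by rule, up to 10 in each direction with the largest log2 fold change between exocrine tissue and control P21 islets among those called, not overlapping and with at least 100 counts, those called with age, the 2 with the smallest p for litter size at each age, the 5 with the highest level, the longest run, the 3 with the lowest CV, the shortest and those at the limit. Opposite pairs and recurring lengths were chosen after their values were seen.

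Alternatives were RLE scaling, TMM over the short intervals alone, no filter or one at 50 counts on average, DESeq2 1.42.0, limma 3.58.1 voom with quality weights, 1 fit of all libraries, a replicate block, removal of each library's trend on log2 length (lowess, span 0.3), and libraries left out. The running median over 101 intervals was added after seeing the data. Plots used matplotlib 3.10.9 in Python 3.11.15.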

Additional observations from a re-analysis of the deposited data

Results flagged for a closer look

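Over the named intervals and groups, 200 sets of 5 libraries were examined for a library far from the others, taken as a gap over the whole range above 0.71. There were 10 such sets, or 5.0%, where chance flags about 1 in 20. In control P180 islets, replicate 3 was the highest in 4 of them. The same library was the lowest of its group, without so wide a gap, at 9 of the 10 named intervals that were lower in exocrine tissue, with 1.31 CPM against 11.1 to 24.7 CPM at chr2:28764624-28764747 and 1.84 against 14.5 to 24.5 at chr9:49784429-49784621. At chr9:5934942-5935143 it had 16.8 CPM with the others from 7.42 to 9.85 CPM (ratio 0.741), and at chr7:17441103-17441181 it had 33.3 CPM against 12.0 to 17.7 (0.733). At chr17:39985469-39985652 it had 1442 CPM against 479 to 720 (0.75), and at chr3:137706493-137706688 it had 29.6 against 18.6 to 21.7 (0.721).

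In control P21 islets, replicate 2 was the highest at chr5:125910386-125910586, with 33.0 CPM against 7.55 to 14.8 (0.715), and at chr6:60140819-60140974, with 21.5 against 8.17 to 11.6 (0.743). Replicate 5 was the highest at chr7:17441103-17441181, with 27.3 CPM against 13.1 to 16.4 (0.771). In exocrine tissue, replicate 5 was the highest at chr2:174125550-174125756, with 81.3 CPM against 49.4 to 56.3 (0.784), and at chr4:153528080-153528299, with 43.4 against 32.0 to 34.2 (0.81). Replicate 1 was the lowest at chr4:148919863-148919977, with 25.2 CPM against 34.5 to 36.6 (0.815). What sets these libraries apart was not tested.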

How the results depend on the processing

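Short intervals called in exocrine tissue against control P21 islets numbered 1028 (14 higher, 1014 lower), and against small-litter P21 islets 781 (12 and 769). Scaling over the short intervals alone gave 438 (236 and 202) with a median of -0.011, and 374 (223 and 151). The lowess length correction gave 551 (263 and 288) with a median of -0.053, and 374 (214 and 160), and the running median 477 (216 and 261) with a median of -0.063, and 308 (157 and 151). With a mean of at least 50 counts, which tests fewer intervals, 358 (346 lower) and 314 (304 lower) were called. Higher calls numbered 31 and 23 by DESeq2, 60 and 37 by limma voom and 29 and 32 in 1 fit of all libraries, and 20 against small-litter islets without the 3 libraries with the most intervals at 0. The replicate block gave 545 (8 and 537) and 379 (6 and 373). The rule for pairing, every correlation of deviations between same-numbered libraries above 0.1, was met by no pair of groups: 4 of 5 were above it between litter groups at P180 (0.030 to 0.56), 3 of 5 between litter groups at P21 (-0.19 to 0.65) and 6 of 40 elsewhere. In each of these 2 litter comparisons, 5 of 10 libraries correlated best with their own number, and the block called 0 in both. Small-litter P21 islets and exocrine tissue also had 3 of 5 above 0.1 (-0.13 to 0.14). There too, 5 of 10 libraries correlated best with their own number, and the block lowered the calls from 781 to 379. Between control P21 islets and exocrine tissue, 0 of 5 were above 0.1 and 0 of 10 libraries correlated best with their own number. The block lowered the calls there as well, from 1028 to 545, so a fall in calls is no measure of pairing. Other causes of the correlations were not tested.

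With 1 library left out, calls ran from 618 to 1329 (7 to 18 higher, 600 to 1313 lower) against control and from 449 to 1080 (3 to 20 higher, 446 to 1068 lower) against small-litter islets, the medians from -1.24 to -0.75 for tissue and from -0.34 to -0.13 for age, and the difference in share from -2.07 to -1.12 percentage points. For age, the 1 call became 0 to 2 with 1 library left out, 0 when scaled over the short intervals or without the 3 libraries, 7 by DESeq2, 2 by limma voom and in 1 fit, 4 with the replicate block or lowess and 5 with the running median. The age median turned to 0.026 when scaled over the short intervals, 0.033 by lowess and 0.0087 by running median, and was -0.085 by limma voom. The first 3 of these settings centre the short intervals by design. Their medians near 0 are therefore not a test of the change with age. With age in each litter group, litter size and the interaction, counts were 0 under every alternative run, each library left out included.

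Among named intervals, chr19:6927683-6927898 turned from -0.01 to 0.041 (RLE, and without the 3 libraries), 0.043 (DESeq2), 0.88 (scaled over short intervals), 0.016 (no filter), 0.085 (voom), 0.047 (1 fit), 0.0093 (replicate block), 0.72 (lowess) and 0.64 (running median). Lowess and running median remove what intervals of like length share. They moved the median of the short intervals from -1.08 to -0.05 and -0.06. Sign changes under these 2 include that shift, so they are not separate evidence. Scaling over short intervals moves every interval up by about 0.87, so its sign changes are fixed by that shift. That scaling, lowess and running median, in this order, turned chr6:60140573-60140819 to 0.28, 0.0078 and 0.036, chr6:60140819-60140974 to 0.45, 0.50 and 0.85, chr4:153528080-153528299 to 0.67, 0.50 and 0.51, chr3:137706493-137706688 to 0.85, 0.75 and 0.64, and chr5:112785495-112785751 to 0.56, 0.29 and 0.39. The running median turned chr6:60140418-60140573 to 0.27. On chromosome 17, chr17:39985469-39985652 turned to -0.027 (mean of at least 50 counts), -0.16 (voom), -0.14 (replicate block) and -0.087 (without the 3 libraries), and chr17:39985224-39985469 to -0.34 (voom) and -0.12 (replicate block). With 1 library left out, the range of these crossed 0 at chr17:39985224-39985469 (-0.19 to 0.35), chr17:39985469-39985652 (-0.19 to 0.23), chr3:137706493-137706688 (-0.14 to 0.022) and chr19:6927683-6927898 (-0.075 to 0.12).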
